A study of Rattus norvegicus with 8 samples.

Results

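The genes described here are 10 genes of transforming growth factor beta (TGF-beta) signalling, chosen by name: the ligands Tgfb1, Tgfb2 and Tgfb3, the latency proteins Ltbp1 and Lrrc32, the receptors Tgfbr1 and Tgfbr2, the signal transducer Smad3, the inhibitor Skil and the secreted matrix protein Tgfbi. The choice was made with earlier results of these data known. All 10 were found by their symbols among the 23487 genes of the table. RNA was sequenced from peritoneal macrophages that had been sorted by flow cytometry from 8-week-old female Wistar rats, killed 15 days after an intraperitoneal injection of 2 mg of carbon nanotubes. In 4 rats these were MWCNT-XNRI-7 (CNT-7), which are needle-like and cause mesothelioma in rats, and in 4 rats they were tangled nanotubes (CNT-T), which do not. Both particles had been suspended in phosphate-buffered saline with albumin. Untreated rats were not analysed here, so that each difference is one between both particles and not a change from the resting state. Nothing in the labels says that macrophages of several animals were pooled.

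TGF-beta is secreted in a latent form, in which each ligand stays wrapped in its own propeptide and is bound to a carrier protein that holds it in the matrix or at the cell surface. Once set free by integrins, proteases or other activators, the ligand brings together the type II receptor (Tgfbr2) and the type I receptor (Tgfbr1), which phosphorylates Smad2 and Smad3. These move to the nucleus with Smad4 and switch on, among others, genes whose products shut the pathway down again. Macrophages both make TGF-beta and respond to it, and the ligand is known for fibrosis, for dampening inflammation and for shaping tissue macrophages.

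Of the 10 genes, 9 passed the filter on low counts and were tested, and 5 of these differed between CNT-7 and CNT-T at an adjusted p-value under 0.10, as against 27.9% of all 12124 genes tested. Tgfb3, Skil and Tgfbi were higher with CNT-7, whereas Tgfb2 and Smad3 were lower. In 3 of the 9, namely Tgfb2, Smad3 and Skil, the rats of one group did not overlap with those of the other, as against 24.9% of all genes. A change of at least 2-fold besides was found for Tgfb2, Tgfb3 and Skil, 3 of the 9 as against 8.30% of all genes. The median log2 fold change of the 9 (CNT-7 over CNT-T) was -0.05, and that of all genes tested was 0.01. Levels are given in CPM, that is, counts per 1000000 of a library scaled by the TMM method of edgeR. Adjusted p-values are from edgeR's quasi-likelihood test over all genes.

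The libraries held between 27195157 and 33732981 counts per rat, at which 3 counts correspond to between 0.0887 and 0.109 CPM. All 8 macrophage markers examined were detected in every rat and tested. Their summed level was between 15140.3 and 22281 CPM with CNT-7 and between 23525 and 33707 CPM with CNT-T, with Lyz2 (log2 fold change -0.47, adjusted p = 0.1002 in edgeR) making up at least 80.6% of it in each rat. The list went both ways, as Cd14 (0.46) and Gata6 (0.30) were higher and Adgre1 (-1.13), Csf1r (-0.33) and Cd68 (-0.34) were lower with CNT-7. Fibroblast markers summed to at most 1.71 CPM in any rat, mesothelial markers to at most 0.905 CPM and B cell markers to at most 2.78 CPM. Endothelial markers summed to between 163 and 200.05 CPM, of which Tie1 made up at least 76.2% and Emcn and Cldn5 had at most 3 counts in any rat; Tek was lower with CNT-7 (log2 fold change -1.02). Neutrophil markers were between 2.93 and 9.18 CPM with CNT-7 and between 6.56 and 11.02 CPM with CNT-T, with Mpo at most at 3 counts. This list also went both ways. S100a8 was lower with CNT-7 (log2 fold change -1.46), whereas S100a9 (1.23), Cxcr2 (1.26) and Elane (-0.68) did not pass the test. Mast cell markers reached at most 3.05 CPM. Eosinophil markers reached 9.33 CPM in CNT-7-treated rat 3, mainly from Ccr3, and at most 0.359 CPM with CNT-T, while Epx and Prg2 had at most 3 counts in any rat. The sum over T cell markers ran from 8.38 to 12.6 CPM with CNT-7 and from 4.32 to 4.94 CPM with CNT-T. Of the 2 that could be tested, Cd8a was higher with CNT-7 (log2 fold change 2.74), whereas Lck (-0.25) did not pass the test. Cd3e, Cd3d, Cd3g and Foxp3 had 63, 28, 38 and 19 counts in CNT-7-treated rat 5 and at most 14 in any other rat. Because these are bulk samples, a smaller share of cells that express a gene and less RNA of it in each cell cannot be told apart. The part of these markers in the results below was not tested.

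**Figure D1:**
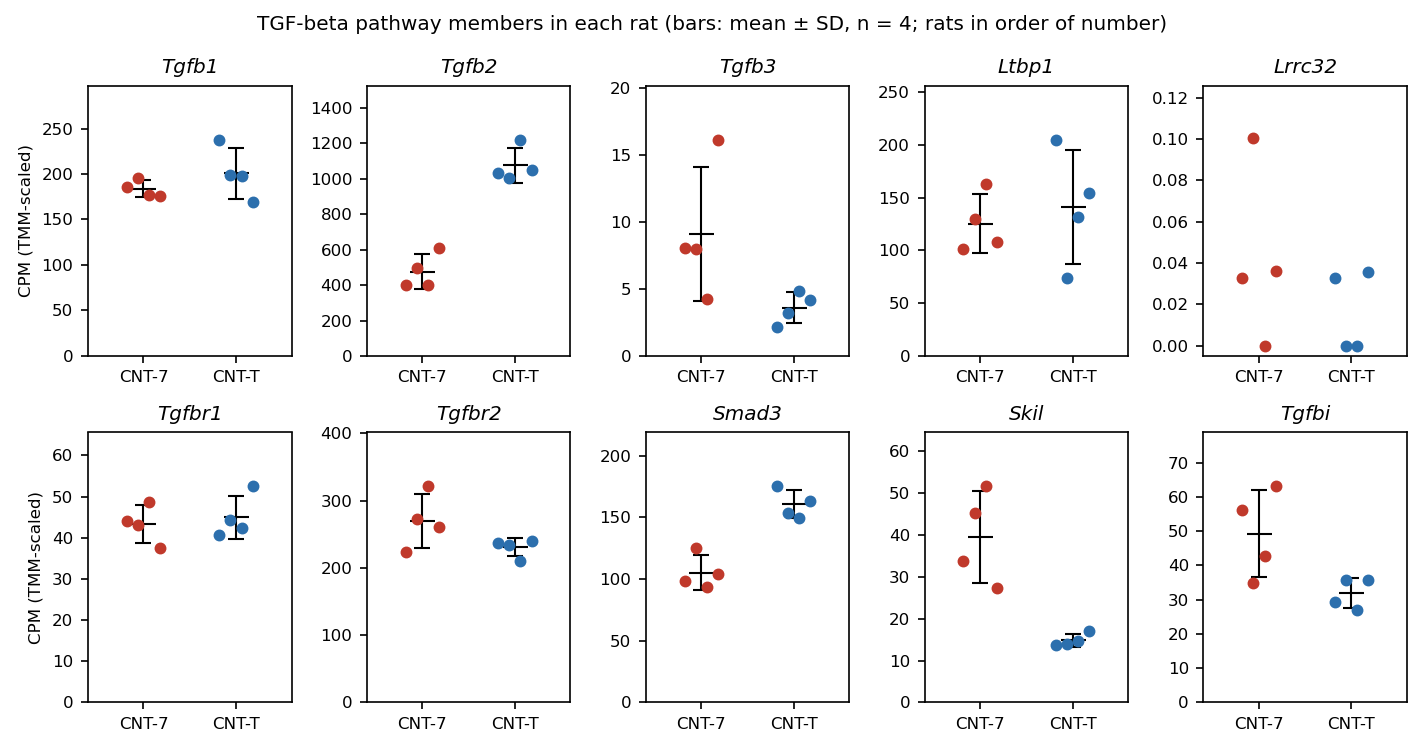
Level of each of the 10 genes in every rat, in TMM-scaled CPM on a linear axis that differs between panels. Points are rats in order of their number, and bars are mean ± SD (n = 4), except for Lrrc32, which had at most 3 counts in any rat. Tgfb2 and Smad3 lie lower and Skil lies higher in all 4 CNT-7-treated rats than in any CNT-T-treated rat.

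Of the 3 ligands, Tgfb2 (ENSRNOG00000002418), which is known in the mouse as a gene of resident large peritoneal macrophages, was the one for which the groups did not overlap. It was measured at 398, 498, 399 and 611 CPM in CNT-7-treated rats 3, 5, 10 and 11. In CNT-T-treated rats 1, 2, 12 and 13 it was at 1032, 1005, 1219.7 and 1049 CPM. All 4 CNT-7-treated rats were therefore below every CNT-T-treated rat, and rat 11, the highest of the former, still lay well under rat 2, the lowest of the latter. The means were 477 ± 101 CPM (SD, n = 4) with CNT-7 and 1077 ± 97.2 CPM (SD, n = 4) with CNT-T. This is a 2.26-fold lower level with CNT-7 (log2 fold change -1.18, standard error (SE) 0.14, 95% interval -1.50 to -0.85, adjusted p = 0.00081). Only 2.85% of the log2 fold changes of all genes were at or below it. In fits without 1 rat at a time, it stayed between -1.32 and -1.10.

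Tgfb3 (ENSRNOG00000009867), the ligand best known from palate and lung development, moved in the opposite direction at a low level. It had 246, 238, 117 and 445 counts, or 8.08, 7.97, 4.22 and 16.1 CPM, in CNT-7-treated rats 3, 5, 10 and 11. The CNT-T-treated rats 1, 2, 12 and 13 had 67, 108, 147 and 117 counts, or 2.18, 3.19, 4.85 and 4.19 CPM. Rat 11 stood at the top and rat 10 overlapped with the CNT-T group, in which rats 12 and 13 were at a similar level. Tgfb3 rose 2.53-fold with CNT-7 (log2 fold change 1.34, SE 0.39, 95% interval 0.47 to 2.20, adjusted p = 0.036). Without CNT-7-treated rat 11, the setting that lowered it most, the log2 fold change was 0.91.

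Tgfb1 (ENSRNOG00000020652), the main ligand of immune cells and platelets, was the ligand that did not pass the test. It was between 176 and 196 CPM with CNT-7 and between 169.7 and 237 CPM with CNT-T, with CNT-T-treated rat 1 the highest and rat 13 the lowest of all. The range of the CNT-7 group lay inside that of the CNT-T group. Means were 184 ± 9.19 CPM and 201 ± 27.8 CPM (SD, n = 4 each), and the log2 fold change was -0.13 (SE 0.10, adjusted p = 0.42). The 95% interval of the fold, from 0.784 to 1.07, leaves out a change as large as that of Tgfb2 or Tgfb3. Platelets carry much Tgfb1 protein, and their genes Gp9, Gp1bb and Gp1ba had 0 counts in every rat and Ppbp at most 1. Itga2b was detected in every rat, with 13 to 39 counts (log2 fold change -0.06, adjusted p = 0.93 in edgeR). Gp6 had 25 counts in CNT-7-treated rat 3 and at most 5 in any other rat. Pf4, which made up at least 99.4% of the platelet marker sum, was detected in all rats and was lower with CNT-7 (log2 fold change -0.98, adjusted p = 0.015 in edgeR). The sum was between 184 and 413 CPM with CNT-7 and between 468 and 721 CPM with CNT-T.

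The make-up of the ligand counts differed between both particles. Of the counts of the 3 ligands together, Tgfb2 held 70.7 ± 3.87% (SD, n = 4) with CNT-7 and 84.0 ± 2.22% (SD, n = 4) with CNT-T. The share of Tgfb1 was 28.0 ± 4.28% with CNT-7 and 15.7 ± 2.30% with CNT-T, and that of Tgfb3 was 1.31 ± 0.534% and 0.280 ± 0.0807%. In each case the groups did not overlap. CNT-7-treated rat 11 came closest to the CNT-T group in Tgfb2 (76.1%) and Tgfb1 (21.9%) but was the farthest from it in Tgfb3 (2.01%), for which rat 10 was the closest (0.728%). These are shares of counts rather than of molecules, as the transcripts differ in length, and no test was made of them. Summed over the 3 ligands, the level was between 581 and 803 CPM with CNT-7 and between 1206 and 1422 CPM with CNT-T.

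**Figure D2:**
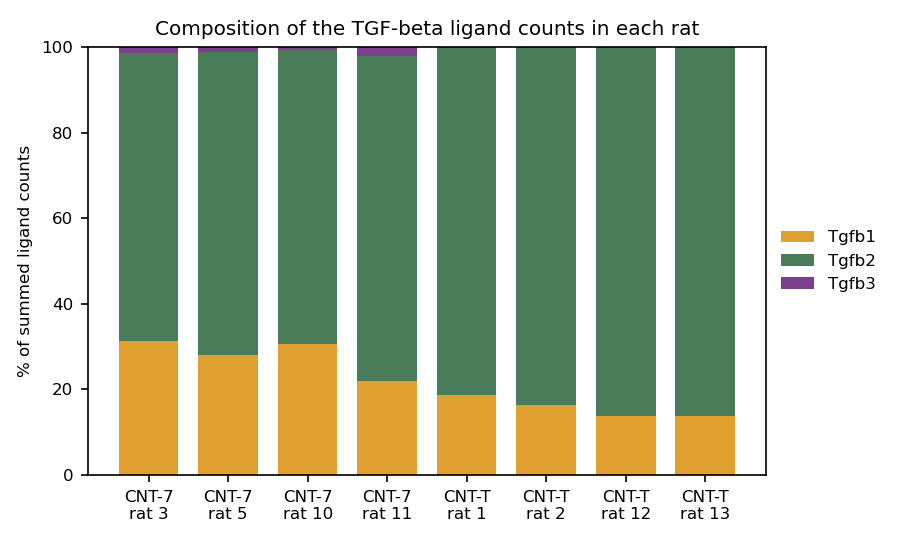
Percent of the summed counts of Tgfb1, Tgfb2 and Tgfb3 that each ligand held in every rat, as stacked bars from 0 to 100%. Tgfb2 holds 67.2% to 76.1% in the CNT-7-treated rats and 81.2% to 85.8% in the CNT-T-treated rats.

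Of Ltbp1 and Lrrc32, both of which hold the latent ligand in place, Ltbp1 did not pass the test and Lrrc32 could not be tested. Ltbp1 (ENSRNOG00000033090), which ties the latent complex to the matrix, was at 101, 129.7, 163 and 108 CPM in CNT-7-treated rats 3, 5, 10 and 11 and at 205, 73.9, 131 and 155 CPM in CNT-T-treated rats 1, 2, 12 and 13. The CNT-T group held both the highest and the lowest rat, which differed 2.77-fold from each other under the same particle. Its log2 fold change was -0.17 (SE 0.27, 95% interval -0.78 to 0.44, adjusted p = 0.71), and without CNT-T-treated rat 1 it was 0.06. Lrrc32 (ENSRNOG00000015310), which encodes GARP, the anchor of latent TGF-beta on regulatory T cells, platelets and endothelium, had 1, 3, 0 and 1 counts in the CNT-7-treated rats. In the CNT-T-treated rats it had 1, 0, 0 and 1 counts. None of these exceeded the floor of 3 counts, so Lrrc32 was not detectable at this depth in either group and was not tested. Nrros, which holds latent TGF-beta on macrophages and microglia, was detected at 217 CPM with CNT-7 and 207 CPM with CNT-T (log2 fold change 0.06, adjusted p = 0.72), and is named after its values were seen.

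Neither receptor passed the test. Tgfbr1 (ENSRNOG00000007036), the type I kinase receptor, was at 44.1, 43.0, 48.6 and 37.5 CPM in CNT-7-treated rats 3, 5, 10 and 11 and at 40.7, 44.4, 42.3 and 52.5 CPM in CNT-T-treated rats 1, 2, 12 and 13. The groups overlapped widely, with a log2 fold change of -0.05 (SE 0.10, adjusted p = 0.76) and a 95% interval of the fold from 0.820 to 1.13. Its sign turned when CNT-7-treated rat 11 or CNT-T-treated rat 13 was left out, to 0.01 and 0.03. Tgfbr2 (ENSRNOG00000013265), the type II receptor that binds the ligand, was at 224, 272, 321 and 261 CPM with CNT-7 and at 237, 235, 211 and 241 CPM with CNT-T in the same order of rats. Rats 5, 10 and 11 were above every CNT-T-treated rat and rat 3 was not. The log2 fold change of Tgfbr2 was 0.23 (SE 0.11, 95% interval -0.01 to 0.46, adjusted p = 0.17). Without CNT-7-treated rat 3 it was 0.30 with an adjusted p = 0.064 in edgeR, under the threshold.

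**Figure D3:**
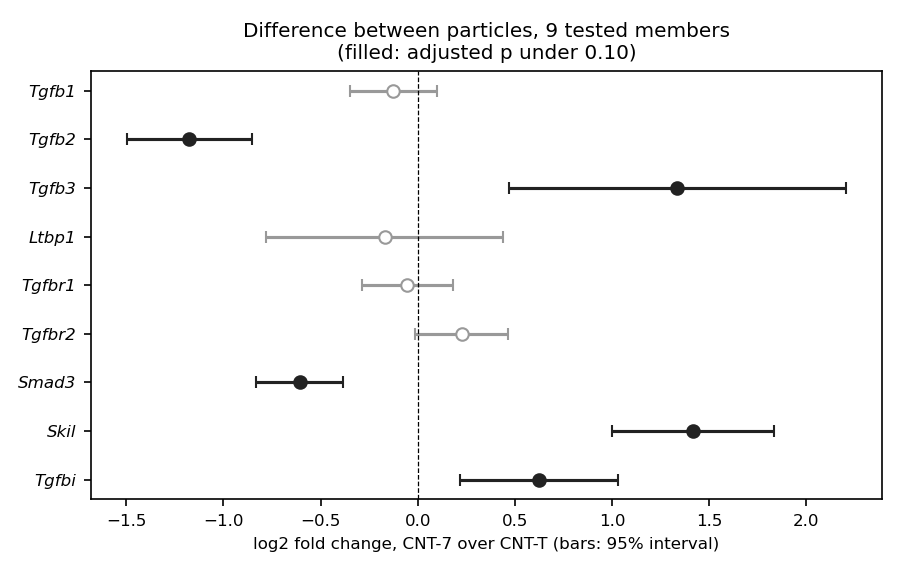
Log2 fold change (CNT-7 over CNT-T) of the 9 tested genes, with bars for the 95% interval from edgeR. Filled points have an adjusted p-value under 0.10: Tgfb2 (-1.18) and Smad3 (-0.61) are lower, and Skil (1.41), Tgfb3 (1.34) and Tgfbi (0.62) are higher with CNT-7.

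Inside the cell, the transducer and its brake moved in opposite directions. Smad3 (ENSRNOG00000008620), the transcription factor that the activated receptor phosphorylates, was at 98.1, 125, 93.6 and 104 CPM in CNT-7-treated rats 3, 5, 10 and 11. In CNT-T-treated rats 1, 2, 12 and 13 it was at 175, 154, 149.5 and 164 CPM. Every CNT-7-treated rat was below every CNT-T-treated rat, with rat 5 the nearest. The means of 105 ± 14.0 and 161 ± 11.3 CPM (SD, n = 4 each) gave a 1.52-fold lower level with CNT-7 (log2 fold change -0.61, SE 0.10, 95% interval -0.83 to -0.38, adjusted p = 0.0031). Skil (ENSRNOG00000009899) encodes SnoN, which binds Smad proteins on DNA and represses their targets, and which is itself induced by TGF-beta. It was at 33.9, 45.2, 51.6 and 27.4 CPM with CNT-7 and at 13.7, 13.95, 14.6 and 17.1 CPM with CNT-T in the same order of rats. The CNT-T-treated rats lay close together, and each CNT-7-treated rat was above all of them. With 39.5 ± 10.9 against 14.8 ± 1.59 CPM (SD, n = 4 each), Skil rose 2.66-fold (log2 fold change 1.41, SE 0.19, 95% interval 0.997 to 1.83, adjusted p = 0.0011). Leaving out each rat in turn kept its log2 fold change between 1.26 and 1.55, and that of Smad3 between -0.70 and -0.55.

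Tgfbi (ENSRNOG00000012216) encodes a secreted matrix protein that was named for its induction by TGF-beta. It was at 56.2, 34.8, 42.9 and 63.0 CPM in CNT-7-treated rats 3, 5, 10 and 11 and at 29.4, 35.8, 26.97 and 35.6 CPM in CNT-T-treated rats 1, 2, 12 and 13. Rat 5 of the CNT-7 group lay below CNT-T-treated rats 2 and 13, so that the groups overlapped, whereas the other 3 were above all CNT-T-treated rats. Tgfbi rose 1.54-fold (log2 fold change 0.62, SE 0.18, 95% interval 0.22 to 1.03, adjusted p = 0.037). The call was lost without CNT-T-treated rat 12, where the log2 fold change was 0.55 and the adjusted p = 0.104 (edgeR).

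Sequence upstream of the start of 3 of the genes that differed is shown, because these moved in opposite directions and their windows reach outside the gene itself. The sequences are from RefSeq on the build GRCr8, on the strand of the gene and written towards its start, and capitals mark GC boxes (GGGCGG on either strand). For Smad3 the stretch is chr8:73132325-73132574 (minus strand), for Skil it is chr2:114203664-114203822 (minus strand), and for Tgfbi it is chr17:7990235-7990363 (minus strand).
Smad3: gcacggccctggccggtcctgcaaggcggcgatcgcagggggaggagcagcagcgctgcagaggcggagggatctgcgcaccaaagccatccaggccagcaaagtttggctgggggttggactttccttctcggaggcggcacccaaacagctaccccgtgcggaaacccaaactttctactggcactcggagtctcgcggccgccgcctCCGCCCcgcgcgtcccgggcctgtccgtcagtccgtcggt
Skil: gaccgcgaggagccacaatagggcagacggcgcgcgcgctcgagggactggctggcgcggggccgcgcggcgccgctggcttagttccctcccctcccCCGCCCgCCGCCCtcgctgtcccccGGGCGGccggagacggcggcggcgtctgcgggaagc
Tgfbi: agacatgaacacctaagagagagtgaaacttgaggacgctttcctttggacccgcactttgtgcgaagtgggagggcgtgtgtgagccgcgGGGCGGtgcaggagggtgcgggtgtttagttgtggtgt
GC boxes, the sites of Sp1-type factors, were found in the 250 bases before the start of Smad3 (1 match), Skil (4 matches) and Tgfbi (2 matches). Of these, 1 of Smad3, 3 of Skil and 1 of Tgfbi lie in the printed stretches. They were also found for Tgfbr1 (3 matches) and Tgfbr2 (1 match), which did not pass the test. Tgfb1, Tgfb2, Tgfb3 and Ltbp1 had none. Of the 33469 promoters of the table, 30.5% held a GC box. Neither CAGACA, a strict form of the SMAD box (17.2% of promoters), nor the longer palindromic SMAD element GTCTAGAC (0.173%) was found in the window of any of the 9 genes that could be matched, on either strand. Shorter forms of the SMAD box, such as AGAC, were not searched for. AGAC stands in the printed stretches of Skil and Tgfbi, and on the other strand (as GTCT) in that of Smad3. The element TGACGTCA, bound by CREB and ATF factors, was found in the windows of Skil, 53 bases before the start, and of Ltbp1, as in 1.59% of promoters. The AP-1 element TGACTCA and TATAAA were found in none of the 9. These matches are descriptions of letters in a short window and show no binding.

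The rats of 1 group did not keep the same order from gene to gene. Among the CNT-7-treated rats, rat 10 was the highest for 4 of the 9 tested genes (Tgfbr1, Tgfbr2, Ltbp1 and Skil) and the lowest for Tgfb3 and Smad3. Rat 11 was the highest for 3 (Tgfb2, Tgfb3 and Tgfbi) and the lowest for 3 others (Tgfb1, Tgfbr1 and Skil). The CNT-7 group was the more spread of both in Skil, with a coefficient of variation of 27.6% against 10.7%, and in Tgfb2, with 21.2% against 9.03%. It was also the more spread in Tgfb3 (55.0% against 32.3%), Tgfbi (25.9% against 13.9%), Tgfbr2 (14.8% against 5.89%) and Smad3 (13.3% against 7.05%). For Tgfb1, Ltbp1 and Tgfbr1 the CNT-T group was the more spread, with 13.9% against 4.998%, 38.5% against 22.2% and 11.6% against 10.5%.

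The rest of the pathway was described with 93 other genes in 8 groups by role, of which 91 were in the table and 65 were tested. Of the 65, 20 were higher and 6 lower with CNT-7, together 40.0%, as against 27.9% of all genes (13.9% higher and 14.0% lower). The lists were written with earlier results of these data known, so the choice of genes may have shaped these shares, and no set test was made. Differences were found among the inhibitors, induced genes, activators, storage proteins and co-receptors, while 0 genes passed among the Smad proteins with their positive cofactors, the activins and other family ligands, and the non-Smad kinases and adaptors.

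**Figure D4:**
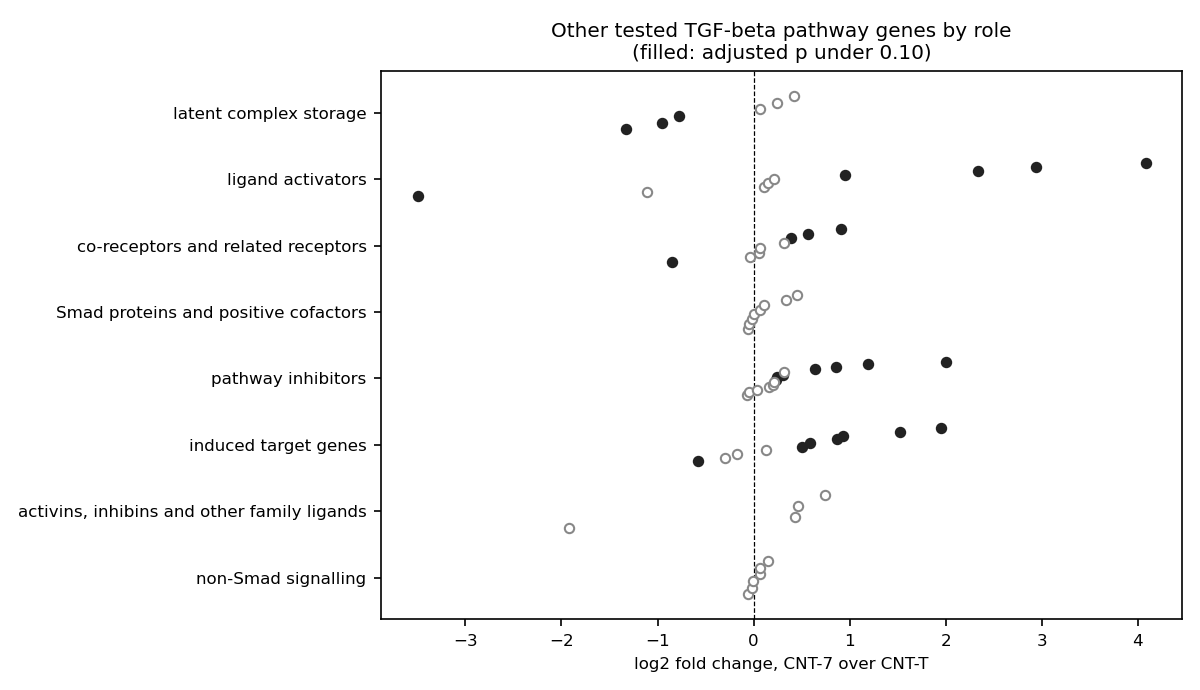
Log2 fold change (CNT-7 over CNT-T) of the 65 other tested genes of the pathway, 1 point per gene, in 8 rows by role. Filled points have an adjusted p-value under 0.10 in edgeR; the pathway inhibitors hold 7 filled points, all on the right of 0, and 3 rows hold none.

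All 14 inhibitors other than Skil were tested, and 7 were higher and 0 lower with CNT-7, with a median log2 fold change of 0.24. Pmepa1, a membrane protein that keeps Smad2 and Smad3 from the receptor, was between 6.18 and 16.4 CPM with CNT-7 and between 1.70 and 3.43 CPM with CNT-T. The groups did not overlap, and its level was 4.01-fold higher with CNT-7 (log2 fold change 2.00, SE 0.34, adjusted p = 0.0036). Smad7, the inhibitory Smad that blocks the type I receptor, was between 5.12 and 11.05 CPM with CNT-7 and between 2.93 and 4.08 CPM with CNT-T, a 2.28-fold higher level (log2 fold change 1.19, SE 0.25, adjusted p = 0.0095). The others, listed after their values were seen, were Ski, a relative of Skil (log2 fold change 0.85), Tgif2 (0.64), Ppm1a (0.30), Ldlrad4 (0.24) and Smurf1 (0.23). DESeq2 added Smurf2. It made a larger share of false calls in simulated counts (28.3% against 11.5%). These had far fewer changed genes than the data have called genes, and their spread was edgeR's own estimate, so these shares may not hold here. Smad6, the inhibitor that acts mainly on bone morphogenetic protein signals, had a log2 fold change of 0.20 (adjusted p = 0.63), and Bambi one of 0.32 (adjusted p = 0.60).

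Among 19 genes that TGF-beta is known to induce, 10 were tested, of which 6 were higher and 1 lower with CNT-7 (median log2 fold change 0.55). Many of them also respond to other signals. Cdkn1a, which encodes the cell cycle inhibitor p21, was at 95.04 ± 28.8 CPM with CNT-7 and 24.5 ± 5.25 CPM with CNT-T (SD, n = 4 each), a log2 fold change of 1.95 (SE 0.23, adjusted p = 0.00063). Timp1, an inhibitor of metalloproteinases, was at 26.7 ± 8.73 CPM with CNT-7 and 9.26 ± 2.13 CPM with CNT-T (SD, n = 4 each), a log2 fold change of 1.53 (SE 0.26, adjusted p = 0.0033). Junb (0.93), Rgcc (0.87), Tsc22d1 (0.59) and Bhlhe40 (0.51) also rose, and they are named after their values were seen. The cell cycle inhibitor Cdkn2b was the gene that fell, from 5.36 to 3.59 CPM (log2 fold change -0.58, adjusted p = 0.046). Its adjusted p-value was 0.103 without CNT-7-treated rat 10 and 0.101 without CNT-T-treated rat 12. Klf10, the early TGF-beta-inducible gene, had a log2 fold change of -0.17 (adjusted p = 0.30) and Fn1, which encodes fibronectin, one of 0.12 (adjusted p = 0.50). The genes of fibroblast matrix and contraction in this list, Col1a1, Acta2, Tagln, Postn and Lox, were below the filter.

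Of the activators of the latent ligand, 13 of 14 listed were in the table, 9 were tested, and 4 were higher and 1 lower (median log2 fold change 0.21). The crosslinking enzyme Tgm2, which helps to store and release the latent complex, was between 3044 and 9514 CPM with CNT-7 and between 149 and 530.3 CPM with CNT-T, 16.9-fold higher (log2 fold change 4.08, SE 0.49, adjusted p = 0.00072). Itgb3, the beta chain of an integrin that binds latent TGF-beta, was 7.69-fold higher, with 53.9 ± 26.9 CPM with CNT-7 and 7.01 ± 0.941 CPM with CNT-T (log2 fold change 2.94, adjusted p = 0.00039). Its partner Itgav had a log2 fold change of 0.15 (adjusted p = 0.14). Plau, which encodes urokinase (log2 fold change 2.33), and Furin, the protease that cuts the TGF-beta precursor (0.96), were the other 2 that rose, and both are named after their values were seen. Mmp9, a gelatinase, was lower with CNT-7, between 0.603 and 1.05 CPM as against between 3.75 and 21.5 CPM with CNT-T (log2 fold change -3.50, adjusted p = 0.0041). CNT-T-treated rat 1 was the highest, and without it the log2 fold change was -2.58. Thbs1, which encodes thrombospondin, had a log2 fold change of -1.11 (SE 0.46, adjusted p = 0.13).

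Storage proteins other than Ltbp1 gave 6 tested genes of 9 listed, with 0 higher and 3 lower with CNT-7. Ltbp3, which carries latent TGF-beta as Ltbp1 does, was between 83.0 and 148 CPM with CNT-7 and between 134 and 216 CPM with CNT-T. Its groups overlapped, since CNT-7-treated rat 5 alone was above the lowest CNT-T-treated rat (log2 fold change -0.78, SE 0.23, adjusted p = 0.038). The call was lost without CNT-T-treated rat 2 (adjusted p = 0.103). Bgn (log2 fold change -0.95, adjusted p = 0.053) and Ltbp2 (-1.33, adjusted p = 0.023), the latter named after its values were seen, had at most 1.42 CPM on average in either group. The call of Bgn was lost in 5 of 8 fits without 1 rat. The other tested genes of this list, Nrros, Fbn1 and Emilin1, did not pass.

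Among the co-receptors and related receptors, 8 of 9 were tested, of which 3 were higher and 1 lower. Tgfbr3, which encodes betaglycan, the co-receptor that presents Tgfb2 to the type II receptor, was between 57.8 and 87.8 CPM with CNT-7 and between 110.1 and 159.8 CPM with CNT-T. It was 1.80-fold lower with CNT-7, without overlap (log2 fold change -0.84, SE 0.14, adjusted p = 0.0035). Acvrl1 (ALK1), a type I receptor known from endothelium, was 1.88-fold higher, with 15.1 ± 2.28 against 8.04 ± 2.00 CPM (log2 fold change 0.91, adjusted p = 0.0093). Acvr1b, the type I receptor of activin, had a log2 fold change of 0.57 (adjusted p = 0.0078), and Eng, which encodes endoglin and is named after its values were seen, one of 0.39 (adjusted p = 0.036).

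In the 3 remaining groups edgeR called 0 genes. Of 8 tested Smad proteins and positive cofactors, 1 had an unadjusted p-value under 0.05 and DESeq2 called 1, in both cases Zfyve9, which presents Smad2 and Smad3 to the receptor (log2 fold change 0.46, adjusted p = 0.13 in edgeR). Smad2 and Smad4, the partners of Smad3, had log2 fold changes of -0.00 and 0.07 (SEs 0.06 and 0.06). The list of 12 genes with the activins and other family ligands also held the follistatin-type Fst, Fstl1 and Fstl3, and 4 were tested. Of the 4 tested, 1 gene was under an unadjusted 0.05 and 1 was called by DESeq2, in both cases Gdf15 (log2 fold change -1.92, SE 0.84, adjusted p = 0.14 in edgeR). The 6 genes of non-Smad signalling had log2 fold changes between -0.05 and 0.15, with 0 under an unadjusted 0.05 and 1 called by DESeq2, Rhoa.

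For the 2 genes with the largest log2 fold changes in size, Skil and Tgfb3, the named genes with the most similar pattern over the 8 rats were listed. Likeness was the distance between log2 CPM values centred on each gene's own mean, among 8868 genes with at least 5 CPM. Nearest to Skil were C5ar2, a receptor of the complement fragment C5a (distance 0.388), Dusp5, a phosphatase of ERK kinases (0.389), and Nfil3, a transcription factor (0.496), as against a median distance of 2.12. Nearest to Tgfb3 were Ank3, an ankyrin (0.925), Lgalsl (0.934) and Samhd1, a nucleotide hydrolase (1.11), as against a median of 2.42. All 6 had higher means with CNT-7, with log2 fold changes between 0.998 and 1.43. The rats share particle, library and depth, so such a distance describes these 8 libraries.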

How the data were processed

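RNA-seq of sorted macrophages was compared between 4 rats given CNT-7 and 4 given CNT-T. The sample titles gave the particle and the number of each rat, and 0 columns were left out. The authors quantified the reads with Salmon (version not given in the sources used here) against the Ensembl cDNA sequences of Rnor_6.0, imported them with tximeta, and deposited estimated counts per gene, not normalized. These are whole numbers, so rounding changed no value. No transcript lengths were used, and levels are therefore not compared between genes. Salmon divides reads among similar transcripts.

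The comparison used edgeR 4.0.16 (R 4.3.3) and its quasi-likelihood test, with TMM normalization, the default filterByExpr filter (minimum count 10, minimum total 15) and Benjamini-Hochberg adjustment over 12124 genes, and the study's threshold of 0.10 was kept. The standard error of a log2 fold change was taken as its size over the root of the F statistic. The labels do not describe separate handling of the rats beyond their numbers, so p-values measure the spread between these 4 and 4 animals. Pearson's r of log2 CPM across genes was between 0.971 and 0.986 for rats of the same group, and no library was a copy of another.

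The members, lists and tests were chosen with earlier results of these data known. Named are the 10 members, from each pathway group at most 2 called genes with the largest rise and 2 with the largest fall among those with at least 1 CPM on average, and the 3 genes most like Skil and Tgfb3. Other genes were named after their values were seen. Some listed genes were not analysed here, and 1 gene of the lists is not reported here. In simulated counts for this comparison (12035 genes tested), edgeR recovered 56.1% of 98 genes changed 1.5-fold and 84.7% of 98 changed 3-fold, and 18 of its 156 calls were false (63 of 223 with DESeq2). DESeq2 1.42.0, other scalings, filters and thresholds, a term for the range of the rat numbers, and leaving out each rat were the alternatives.

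Promoter sequences are RefSeq's for GRCr8, matched by symbol for 9 of the 10 genes. They were taken to run along the gene's strand, since TATAAA lay 35 to 20 bases before the start in 0.962% of minus-strand genes as given and in 0.253% after reverse complementing. Intervals of fold changes come from the edgeR fit and include the spread between rats, whereas the floor of 3 counts covers counting error alone.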

Additional observations from a re-analysis of the deposited data

Results flagged for a closer look

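In 4 of 56 groups of 4 rats examined for the genes named, 1 rat stood apart from the others (gap to the nearest rat over the whole range, above Dixon's 95% limit), where 2.8 groups are expected by chance. Ltbp3 was at 148 CPM in CNT-7-treated rat 5, with 83.0 to 88.1 CPM in the other rats of the group (ratio 0.922). Mmp9 was at 21.5 CPM in CNT-T-treated rat 1, with 3.75 to 6.55 CPM in the others (ratio 0.842). Nfil3 was at 88.5 CPM in CNT-7-treated rat 10, with 51.5 to 57.7 CPM in the others (ratio 0.832). Samhd1 was at 177 CPM in CNT-7-treated rat 11, with 80.3 to 96.8 CPM in the others (ratio 0.830). None of the 9 tested TGF-beta genes was among them, and Lrrc32 was not examined.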

How the results depend on the processing

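Of 144 log2 fold changes of the 9 tested genes under the alternatives, 137 kept their direction and their side of the threshold. The 3 that turned sign were Tgfbr1 without CNT-7-treated rat 11 (0.0085) and without CNT-T-treated rat 13 (0.027, the highest of a range from -0.11), and Ltbp1 without CNT-T-treated rat 1 (0.063, the highest of a range from -0.38), neither of which passed the test in any fit; the cause was not tested. Tgfb2, Tgfb3, Skil and Smad3 passed in all 8 fits that each left out a rat. In these fits the adjusted p-value of Tgfb3 (edgeR) reached 0.095, as against at most 0.0113 for Tgfb2, Skil and Smad3. Between 4 and 6 of the 9 genes passed in them, 2 to 4 of them higher and 2 lower. Tgfbr2 came under the threshold without CNT-7-treated rat 3 and Tgfbi rose above it without CNT-T-treated rat 12. DESeq2, its size factors in edgeR, upper-quartile scaling, both other filters, a threshold of 0.05 and a term for the range of the rat numbers (up to 5, from 10) all gave the same count of 5.

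Asking for a 2-fold change as well, which by its construction removes smaller differences, left 3 genes (2 higher and 1 lower; Smad3 and Tgfbi dropped out), 9 of the 26 called pathway genes, and 1006 of all 3383 genes called, 552 higher and 454 lower. Without each rat in turn the pathway genes called numbered between 23 and 27. The share of Tgfb2 in the ligand counts differed by -13.3 percentage points (CNT-7 minus CNT-T), and by between -15.0 and -12.1 without each rat in turn. No paired analysis was possible because the groups share no rat number. Depth limited Lrrc32, whose 0 to 3 counts could not be told from its absence.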
